A study of Homo sapiens with 8 samples.

Results

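Genes of proteoglycans and hyaluronan were followed in RNA-seq libraries of human breast epithelial cells that overexpressed the long non-coding RNA *MALINC1*. The 10 genes are *ACAN*, *VCAN*, *HSPG2*, *HAS2*, *HAS3*, *CD44*, *SDC1*, *SDC4*, *GPC1* and *ADAMTS14*. They were chosen by symbol from a list drawn up with results of these libraries known. Which measured values it was selected on is not stated, so the values of the 10 genes in every comparison are given as a description. All 10 listed genes were found among the 13842 genes of the deposited table. MCF10A is an immortalized, non-tumorigenic breast epithelial cell line, and DCIS.COM is a line of the same lineage that forms lesions like ductal carcinoma in situ (DCIS). Each line had been stably transduced with pLOC-*MALINC1* or, as control, with the pLOC-empty vector, and all cells had been selected with blasticidin. There were 2 libraries in each of the 4 groups and 8 in all. The 2 libraries of a group are not described as separate cultures, so p-values measure the spread between these libraries, which may be technical.

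A proteoglycan is a core protein that carries chains of sulfated sugars, mostly chondroitin, dermatan or heparan sulfate. Aggrecan (*ACAN*) and versican (*VCAN*) are large chondroitin sulfate proteoglycans of the matrix that bind hyaluronan, an unsulfated chain that the synthases encoded by *HAS2* and *HAS3* extrude through the plasma membrane. CD44 is the main cell-surface receptor of hyaluronan. Perlecan (*HSPG2*) is a heparan sulfate proteoglycan of basement membranes, whereas syndecans (*SDC1* and *SDC4*) and glypicans (*GPC1*) carry heparan sulfate at the cell surface, where it holds growth factors. ADAMTS14 belongs to the proteases that remove the N-propeptide of procollagens.

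On the GRCh37 build all 10 were annotated as protein-coding genes. The matrix proteoglycan genes lie at chr15:89346667-89418584 (*ACAN*, plus strand), chr5:82767437-82878122 (*VCAN*, plus strand) and chr1:22148737-22263803 (*HSPG2*, minus strand). The synthase gene *HAS3* lies at chr16:69139556-69152622 (plus strand), and the gene of the receptor at chr11:35160429-35253949 (*CD44*, plus strand). The cell-surface proteoglycan genes lie at chr2:20400558-20425194 (*SDC1*, minus strand), chr20:43953928-43977064 (*SDC4*, minus strand) and chr2:241375080-241407493 (*GPC1*, plus strand), and the protease gene at chr10:72432262-72522197 (*ADAMTS14*, plus strand). Exons of *HSPG2* share 2122 nt with *LDLRAD2* on the other strand, those of *VCAN* 453 nt with *VCAN-AS1*, and those of *HAS2* 251 nt with *HAS2-AS1*. Also on the other strand, exons of *HAS3* share 365 nt with *CHTF8* and 365 nt with *DERPC*. Those of *CD44* share 84 nt with *CD44-AS1* and 70 nt with *CD44-DT*. Of these overlapping genes, only *CHTF8* was found in the deposited table by symbol. The strand setting of the read counting is not given in the sources used here, so reads of these stretches could not be assigned to one strand.

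The sequence before the transcription start is shown for *ACAN*, *VCAN* and *HAS3*, whose levels differed strongly between groups. Each line holds the 250 bases that precede the RefSeq start on GRCh38.p14, on the strand of the gene, at chr15:88803186-88803435, chr5:83471494-83471743 and chr16:69107290-69107539 respectively. Capitals mark the GC box GGGCGG on either strand.
ACAN: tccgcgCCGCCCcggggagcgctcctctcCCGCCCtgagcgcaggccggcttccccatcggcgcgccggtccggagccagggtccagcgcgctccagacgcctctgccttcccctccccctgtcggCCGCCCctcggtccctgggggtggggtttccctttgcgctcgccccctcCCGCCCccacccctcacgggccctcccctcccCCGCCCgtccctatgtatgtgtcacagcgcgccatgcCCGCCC
VCAN: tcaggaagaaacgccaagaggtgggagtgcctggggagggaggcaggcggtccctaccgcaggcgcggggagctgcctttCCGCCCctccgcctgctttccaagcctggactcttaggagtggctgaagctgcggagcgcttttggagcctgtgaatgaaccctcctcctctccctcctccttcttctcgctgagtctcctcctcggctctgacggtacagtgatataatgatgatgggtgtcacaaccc
HAS3: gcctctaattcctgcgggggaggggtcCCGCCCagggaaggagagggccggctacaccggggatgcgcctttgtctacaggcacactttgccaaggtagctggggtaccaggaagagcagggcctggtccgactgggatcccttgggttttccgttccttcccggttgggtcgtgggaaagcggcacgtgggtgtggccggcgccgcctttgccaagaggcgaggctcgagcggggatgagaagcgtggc
GC boxes numbered 6 in *ACAN*, none of which overlapped another, 1 in *VCAN* and 1 in *HAS3*. The G and C content was 77.2% in *ACAN*, 60.8% in *VCAN* and 66.0% in *HAS3*, against a median of 58% over 35116 RefSeq promoters. An entry was found for 9 of the 10 genes, *HAS2* being the one unmatched, and all 9 held a GC box, as did 42.6% of all promoters. The AP-1 letters TGANTCA, the TATA box TATAAA and the TEAD letters CATTCC, each searched on both strands, were present in 0 of the 9 and in 6.57%, 10.7% and 11.9% of all promoters. Such matches describe letters only.

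Levels are given as CPM, the recovered reads divided by the scaled library size, with the prior count of the deposited values removed. The libraries held 20604377 to 37550457 reads on genes, and 1 read was worth 0.0279 to 0.0477 CPM. Reads of the small RNA genes *RN7SL1* and *RN7SL2* made up 8.22% to 15.7% of a library. *MALINC1* itself stood at 1.0 and 1.51 CPM in MCF10A with pLOC-empty and at 13.2 and 11.7 CPM with pLOC-*MALINC1*, and in DCIS.COM at 1.35 and 1.15 CPM against 24.5 and 19.2 CPM. All 10 epithelial markers examined were at 1 CPM or more in every group. Of the markers of other cell types, 1 of 8 fibroblast, 1 of 4 endothelial and 1 of 6 leukocyte genes were in the table. These moved with the groups. The endothelial gene *PECAM1* had group means of 1.0 CPM and 0.744 CPM in MCF10A with pLOC-empty and pLOC-*MALINC1*, and of 6.64 and 0.132 CPM in DCIS.COM. In the same order, the collagen gene *COL1A1* had means of 15.5, 7.0, 1.96 and 1.55 CPM and the leukocyte gene *CSF1R* of 23.9, 11.8, 0.638 and 0.308 CPM. The defining genes *PTPRC*, *VWF* and *PDGFRA* were looked for and were not among the genes of the table, and the part of such cells in the results was not tested. In bulk RNA, fewer cells that express a gene and less RNA of it per cell cannot be told apart.

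**Figure D1:**
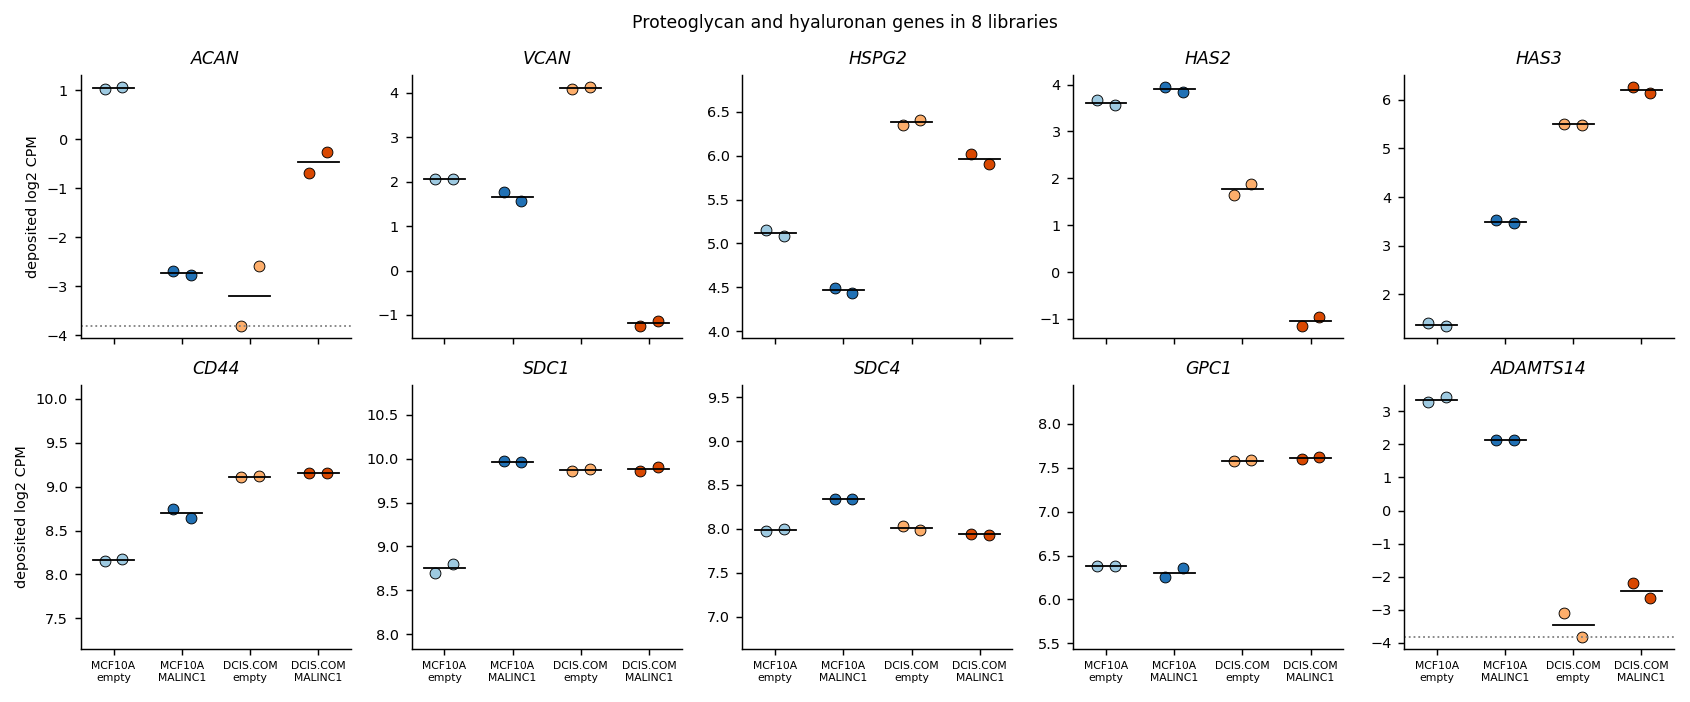
Deposited log2 CPM (y axis, one scale per gene) of the 10 genes in the 8 libraries, with 2 points per group and a line at the group mean. The dotted line is the value of a gene without reads, and the *ACAN* and *ADAMTS14* points of DCIS.COM with pLOC-empty lie on or near it, whereas *VCAN* is highest in that group and lowest in DCIS.COM with pLOC-*MALINC1*.

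The first question was how the genes stood in the control cells of each line. Levels were compared between genes per kb of the canonical transcript. In MCF10A with pLOC-empty the cell-surface genes led, with *SDC1* at 137 ± 6.88 CPM per kb (SD, n = 2), *SDC4* at 97.1 ± 1.09, *CD44* at 52.8 ± 0.489 and *GPC1* at 22.4 ± 0.0244. *HAS2* followed at 2.87 ± 0.155 CPM per kb, *HSPG2* at 2.41 ± 0.0743 and *ADAMTS14* at 1.82 ± 0.148. *HAS3* at 0.604 ± 0.0180, *VCAN* at 0.332 ± 0.00280 and *ACAN* at 0.223 ± 0.00562 CPM per kb were the lowest. With the length of all annotated exons in place of the canonical transcript, *HSPG2* at 1.91 and *ADAMTS14* at 1.82 CPM per kb were closer than the spread between libraries.

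In DCIS.COM with pLOC-empty the order was *SDC1* at 295 ± 4.16 CPM per kb (SD, n = 2), *CD44* at 102 ± 0.545, *SDC4* at 98.4 ± 2.32, *GPC1* at 51.4 ± 0.138 and *HAS3* at 10.7 ± 0.190. *HSPG2* was at 5.80 ± 0.170 CPM per kb, *VCAN* at 1.40 ± 0.0339 and *HAS2* at 0.785 ± 0.0995. *ACAN* and *ADAMTS14* came last at 0.00533 ± 0.00753 and 0.00420 ± 0.00593 CPM per kb, which were not distinguishable. *CD44* fell below *SDC4*, to 55.5 CPM per kb, when the length of all its exons was used.

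Between the control cells of the lines, 8 of the 10 genes were called, at an adjusted p < 0.01 and a difference over 2-fold by limma, with 5 higher and 3 lower in DCIS.COM. Over all genes 28.6% were called in this comparison. The choice of the genes may have used it, and its pLOC-empty libraries also serve as controls of *MALINC1* overexpression, so nothing is read from the share. The lines had also been kept in different media, with epidermal growth factor, hydrocortisone, insulin and cholera toxin given to MCF10A alone, so that line and medium cannot be told apart. The median log2 fold change was 1.03 over the 10 genes and 0.031 over all genes. The median size of the change regardless of direction was 1.56 and 0.56.

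*HAS3* showed the largest rise of the 10 genes in DCIS.COM, from 2.59 and 2.48 CPM in MCF10A to 45.4 and 44.3 CPM. Its log2 fold change was 4.11 (SE 0.072). The other synthase moved the opposite way, *HAS2* falling from 12.6 and 11.7 CPM to 3.03 and 3.63 CPM, with a log2 fold change of -1.85 (SE 0.14). No library of one line reached the range of the other for either synthase. Among the matrix proteoglycans, *VCAN* rose from 4.07 and 4.12 CPM to 17.0 and 17.6 CPM, a log2 fold change of 2.06 (SE 0.15). *HSPG2* rose from 35.4 and 33.9 CPM to 81.4 and 84.8 CPM, a log2 fold change of 1.26 (SE 0.052). *VCAN* and *HSPG2* were thus higher in both DCIS.COM libraries than in either MCF10A library, whereas *ACAN* was lower. *ACAN* had 57 and 46 reads in MCF10A but 0 and 2 reads in DCIS.COM, and by the summed reads it was 42.3-fold lower, with an exact 95% counting interval of 11.4 to 354.

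Of the cell-surface genes, *SDC1* rose from 417 and 447 CPM in MCF10A to 926 and 944 CPM in DCIS.COM, a log2 fold change of 1.11 (SE 0.038). *GPC1* rose from 83.1 and 83.2 CPM to 191 and 192 CPM, a log2 fold change of 1.20 (SE 0.037). The values of both lines lay far apart compared with the spread within a line. *CD44* stood at 285 and 289 CPM in MCF10A and at 552 and 556 CPM in DCIS.COM, a log2 fold change of 0.95 (SE 0.034) that stayed under 2-fold. *SDC4* stood at 252 and 256 CPM in MCF10A and at 261 and 253 CPM in DCIS.COM, and these ranges overlapped (log2 fold change 0.019, 95% confidence interval -0.048 to 0.086). The protease gene *ADAMTS14* fell from 9.55 and 10.7 CPM to 1 and 0 reads. By summed reads it was 426-fold lower, with an exact counting interval of 76.2 to 16877. Counting intervals cover counting error only.

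The next question was what differed between pLOC-*MALINC1* and pLOC-empty cells of each line. Separate transductions are not described, so an effect of *MALINC1* and a difference between selected cell populations cannot be told apart. In MCF10A 4 of the 10 genes were called, with *HAS3* and *SDC1* higher and *ACAN* and *ADAMTS14* lower, against 5.5% of all genes. In DCIS.COM 4 were called, with *ACAN* and *ADAMTS14* higher and *VCAN* and *HAS2* lower, against 4.53% of all genes. Since these comparisons may have chosen the genes, nothing is read from these shares either. At the same adjusted p without a limit of fold, 7 genes in MCF10A and 6 in DCIS.COM differed. Of all 13842 genes, 5485 in MCF10A and 4592 in DCIS.COM did so. The median log2 fold change of the 10 genes was 0.11 in MCF10A and 0.024 in DCIS.COM, where all genes had medians within 0.0089 of 0.

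**Figure D2:**
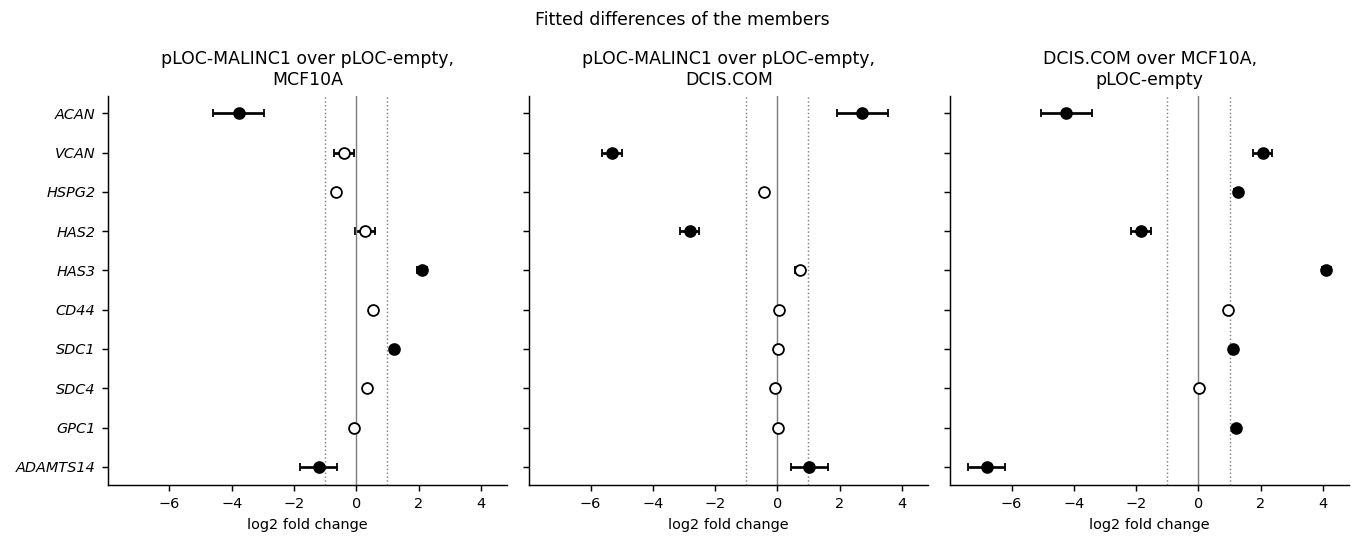
Log2 fold change (x axis) of the 10 genes (y axis) with 95% confidence intervals from limma, for pLOC-*MALINC1* over pLOC-empty in MCF10A and in DCIS.COM and for DCIS.COM over MCF10A with pLOC-empty. Filled points passed an adjusted p < 0.01 and 2-fold (dotted lines), and *VCAN* at -5.31 and *ACAN* at 2.73 are the lowest and the highest in DCIS.COM.

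*VCAN* had the largest difference among the genes in DCIS.COM. It stood at 17.0 and 17.6 CPM with pLOC-empty and at 0.350 and 0.384 CPM with pLOC-*MALINC1*, which gave a log2 fold change of -5.31 (SE 0.15). In MCF10A it stood at 4.07 and 4.12 CPM with pLOC-empty and at 3.34 and 2.87 CPM with pLOC-*MALINC1*, for a log2 fold change of -0.39 (SE 0.15). The libraries with pLOC-*MALINC1* were thus below both control libraries in each line, and the gene that was higher in DCIS.COM than in MCF10A with pLOC-empty was lower there with pLOC-*MALINC1* (log2 fold change -2.86, SE 0.15). The response in DCIS.COM minus that in MCF10A was -4.91 on the log2 scale (SE 0.21). The endothelial marker *PECAM1* was lower in the same DCIS.COM libraries, at 0.132 against 6.64 CPM, and its part was not tested. The other endothelial markers examined, *VWF*, *CDH5* and *KDR*, were not among the genes of the table.

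*ACAN*, the other large chondroitin sulfate proteoglycan, went opposite ways in the lines. In MCF10A it had 57 and 46 reads (1.97 and 2.04 CPM) with pLOC-empty and 3 and 2 reads (0.0836 and 0.0756 CPM) with pLOC-*MALINC1*. In DCIS.COM it had 0 and 2 reads with pLOC-empty and 45 reads over both libraries (0.553 and 0.769 CPM) with pLOC-*MALINC1*. By summed reads it was 24.9-fold lower in MCF10A, with a counting interval of 10.3 to 78.3, and 14.0-fold higher in DCIS.COM, with an interval of 3.66 to 119. The fitted log2 fold changes, which depend on the prior count at such read numbers, were -3.78 (SE 0.38) and 2.73 (SE 0.38). Even the highest of these levels was about 2 CPM. *HSPG2* was lower with pLOC-*MALINC1* in both lines, at 35.4 and 33.9 against 22.5 and 21.6 CPM in MCF10A and at 81.4 and 84.8 against 64.6 and 59.9 CPM in DCIS.COM. Its log2 fold changes of -0.65 (SE 0.052) and -0.42 (SE 0.052) stayed under 2-fold.

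The synthases differed in opposite directions in DCIS.COM. *HAS2* stood at 3.03 and 3.63 CPM with pLOC-empty and at 0.379 and 0.443 CPM with pLOC-*MALINC1*, for a log2 fold change of -2.82 (SE 0.14). *HAS3* stood at 45.4 and 44.3 against 77.0 and 70.2 CPM, a log2 fold change of 0.71 (SE 0.072). In neither case did the groups overlap. In MCF10A *HAS3* went from 2.59 and 2.48 CPM to 11.5 and 10.9 CPM, a log2 fold change of 2.11 (SE 0.072). *HAS2* stood there at 12.6 and 11.7 CPM against 15.5 and 14.2 CPM, with a log2 fold change of 0.29 and a 95% confidence interval of -0.029 to 0.60 that includes 0. *HAS3* was therefore higher with pLOC-*MALINC1* in both lines, and *HAS2* was lower in DCIS.COM, while its interval in MCF10A includes 0.

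Per kb of transcript, *HAS3* made up 17.2% and 17.7% of the sum of both synthases in MCF10A with pLOC-empty and 42.9% and 43.7% with pLOC-*MALINC1*. In DCIS.COM it made up 93.8% and 92.5% with pLOC-empty and 99.5% and 99.4% with pLOC-*MALINC1*. The sum itself was 3.47 ± 0.173, 6.17 ± 0.305, 11.5 ± 0.0904 and 17.7 ± 1.14 CPM per kb in that order of groups (SD, n = 2). The synthase transcripts of MCF10A were thus mostly *HAS2* and those of DCIS.COM almost entirely *HAS3*, and both the sum and the share of *HAS3* were higher with pLOC-*MALINC1* in each library of both lines. *HAS1*, the remaining synthase gene, was not among the genes of the table.

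**Figure D3:**
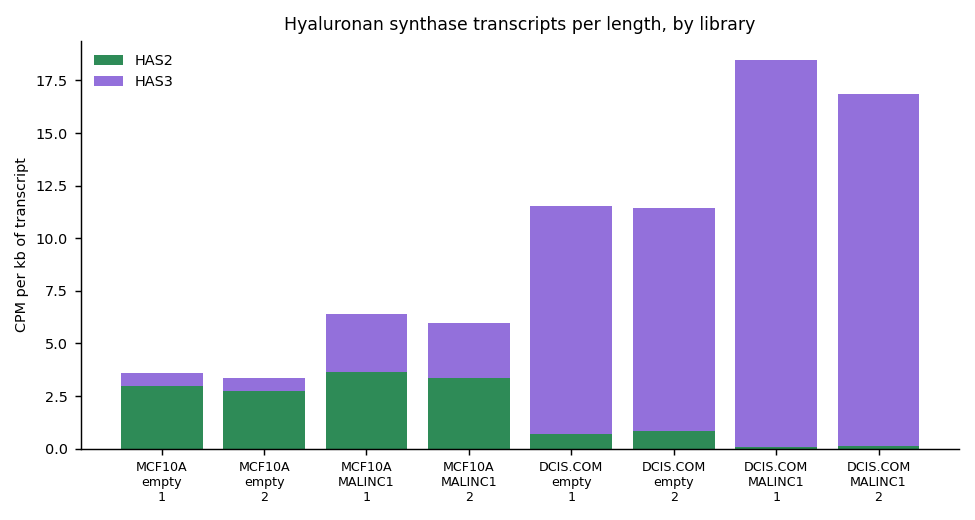
CPM per kb of canonical transcript (y axis) of *HAS2* and *HAS3*, stacked, in each of the 8 libraries (x axis). The sum rises from 3.35 in the lowest MCF10A library with pLOC-empty to 18.5 in the highest DCIS.COM library with pLOC-*MALINC1*, and *HAS3* makes up over 92% of it in each DCIS.COM library.

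At the cell surface, *SDC1* stood out in MCF10A, at 417 and 447 CPM with pLOC-empty and 1005 and 994 CPM with pLOC-*MALINC1*, for a log2 fold change of 1.21 (SE 0.038). In DCIS.COM it stood at 926 and 944 against 929 and 958 CPM, and the groups overlapped (log2 fold change 0.012, 95% confidence interval -0.071 to 0.095). With pLOC-*MALINC1* the levels of *SDC1* in the lines were close, with a log2 difference of -0.084 (SE 0.038). *SDC4* showed the same order on a smaller scale in MCF10A, with 252 and 256 against 324 and 323 CPM and a log2 fold change of 0.35 (SE 0.031). In DCIS.COM *SDC4* stood at 261 and 253 against 245 and 245 CPM, a log2 fold change of -0.070 (SE 0.031).

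*CD44*, the receptor, stood at 285 and 289 CPM in MCF10A with pLOC-empty and at 428 and 401 CPM with pLOC-*MALINC1*, for a log2 fold change of 0.53 (SE 0.034). In DCIS.COM it stood at 552 and 556 against 572 and 571 CPM, a log2 fold change of 0.043 (95% confidence interval -0.032 to 0.12). *CD44* was thus higher in both MCF10A libraries with pLOC-*MALINC1*, whereas the interval in DCIS.COM includes 0. *GPC1* stood at 83.1 and 83.2 against 76.4 and 81.7 CPM in MCF10A, the smallest change of the 10 genes there, and at 191 and 192 against 195 and 197 CPM in DCIS.COM. Its log2 fold changes of -0.073 (95% confidence interval -0.15 to 0.0079) and 0.035 (-0.046 to 0.12) have intervals that include 0.

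The protease gene *ADAMTS14* stood at 9.55 and 10.7 CPM in MCF10A with pLOC-empty and at 4.35 and 4.34 CPM with pLOC-*MALINC1*, for a log2 fold change of -1.21 (SE 0.27). In DCIS.COM it had 1 and 0 reads with pLOC-empty and 8 reads over both libraries with pLOC-*MALINC1*, a ratio of 4.98 with a counting interval of 0.667 to 221 that includes 1. Its call in DCIS.COM thus rests on few reads, and was lost in 12 of 18 alternative settings. In MCF10A its call was lost in 5 of 18, among them each setting without 1 of the 4 MCF10A libraries, where the log2 fold change ran from -1.29 to -1.12.

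For *VCAN*, *HAS2*, *HAS3* and *ACAN*, the genes outside the list with the most alike pattern of deposited log2 CPM over the 8 libraries were looked up among genes with at least 5 CPM in a group. For *HAS3* they were *NOTCH1* (r = 0.999), which encodes a receptor of cell fate decisions, and *ITGA3* (r = 0.999), an integrin subunit that binds laminin. *NOTCH1* had group means of 24.2, 59.9, 141 and 176 CPM in the order MCF10A with pLOC-empty and pLOC-*MALINC1* and DCIS.COM with pLOC-empty and pLOC-*MALINC1*. For *HAS2* the gene given is *ESRP1*, an epithelial splicing regulator (177, 179, 152 and 124 CPM, r = 0.999). For *VCAN* they were *FLII* (r = 0.994) and *CHD8* (r = 0.990), and for *ACAN* a gene without a symbol (r = 0.984) and *FAM43A* (r = 0.978). *FAM43A* had group means of 6.58, 1.57, 1.46 and 3.18 CPM. The 7 genes given here had the same order of group means as the gene they were matched to, over a narrower range of levels. The 8 points fall into 4 groups and share libraries with the genes compared, so the correlations are a description.

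Other genes of the pathway came from a list of 119, of which 83 were in the table. In MCF10A 14 of the 83 passed the test with pLOC-*MALINC1*, 9 higher and 5 lower, and in DCIS.COM 11 passed, 2 higher and 9 lower. Over all genes 5.5% passed in MCF10A, 414 higher and 347 lower, and 4.53% in DCIS.COM, 200 higher and 427 lower, so that more genes were lower than higher there in the pathway and in the whole table. Their median log2 fold changes of -0.055 and -0.036 were close to those of all genes. Adjusted p-values of the called genes ran from 3.25e-09 to 0.00579 in MCF10A and from 5.51e-09 to 0.000770 in DCIS.COM. Genes of chain sulfation and epimerization, of which 26 were tested, made up 4 of the 14 called in MCF10A and 6 of the 11 called in DCIS.COM.

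Of the 7 genes of hyaluronan synthesis and turnover, *CEMIP* and *HYAL4* rose in MCF10A. *CEMIP*, which takes part in the breakdown of hyaluronan, stood at 0.621 and 0.797 CPM with pLOC-empty and at 4.68 and 5.33 CPM with pLOC-*MALINC1*, for a log2 fold change of 2.71 (SE 0.20, adjusted p = 3.83e-07). In DCIS.COM it stood at 1.87 and 2.53 against 1.37 and 1.48 CPM and was not called. *HYAL4*, whose enzyme acts mainly on chondroitin sulfate, had 0 reads in MCF10A with pLOC-empty and 9 reads with pLOC-*MALINC1*. It was at least 2.48-fold higher against 3 reads over the control group, a limit that leaves out the counting error of the 9 reads. It fell in DCIS.COM from 1.68 and 1.91 CPM to 3 and 1 reads, a ratio of 30.6 with a counting interval of 11.5 to 115 (adjusted p = 4.46e-06). The call of *HYAL4* in MCF10A was lost in 7 of 18 alternative settings, with adjusted p-values of 0.0230 and 0.0235 without control library 1 or 2 and of 0.0611 without the pLOC-*MALINC1* library 1.

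Of the 7 other matrix proteoglycans, *BGN* (biglycan) rose in MCF10A from 0.345 and 0.177 CPM to 1.81 and 2.15 CPM, a log2 fold change of 2.67 (SE 0.38, adjusted p = 9.21e-05), and had 1 read in each DCIS.COM group. *SPOCK2* (testican) fell in MCF10A from 3.45 and 2.52 CPM to 0.557 and 0.567 CPM, a log2 fold change of -2.25 (SE 0.24, adjusted p = 7.71e-06). *SRGN*, the proteoglycan of secretory granules, fell in DCIS.COM from 27 reads in each library to 1 and 2 reads, a ratio of 28.9 with a counting interval of 9.39 to 145 (adjusted p = 6.82e-07). The called genes of this list were thus all under 5 CPM, and none was called in both lines.

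Of the 9 other cell-surface proteoglycans, *PTPRZ1* was higher in both lines. This chondroitin sulfate proteoglycan with a phosphatase domain went from 0.103 and 0.310 CPM to 5.02 and 4.61 CPM in MCF10A, a log2 fold change of 4.24 (SE 0.25, adjusted p = 5.01e-08). *PTPRZ1* had only 3 and 7 control reads there, and its log2 fold change ran from 2.27 to 4.80 over the alternative settings. In DCIS.COM it went from 35.9 and 39.0 CPM to 92.8 and 100 CPM, a log2 fold change of 1.37 (SE 0.25, adjusted p = 0.000770), whose adjusted p was 0.0139 without the control library 1 and 0.0133 without the pLOC-*MALINC1* library 2. The remaining 3 called genes fell in MCF10A. *CSPG4* (NG2) fell from 70.3 and 64.4 CPM to 11.1 and 12.6 CPM, a log2 fold change of -2.50 (SE 0.11, adjusted p = 3.25e-09). The syndecan *SDC3* fell from 103 and 103 CPM to 40.1 and 39.1 CPM, a log2 fold change of -1.38 (SE 0.079). The syndecan *SDC2* fell from 22 and 13 reads to 2 and 2 reads, a ratio of 10.6 with a counting interval of 3.78 to 41.0. *SDC2* and *SDC3* thus moved opposite to *SDC1* in MCF10A, while both were uncalled in DCIS.COM with log2 fold changes of 0.20 and 0.30.

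Of the 16 genes of linkage and chain synthesis, 0 passed in MCF10A. At any fold, 4 had an adjusted p < 0.01 there, beside 5485 of all 13842 genes. In DCIS.COM *CSGALNACT1*, which starts chondroitin chains, fell from 26.1 and 30.8 CPM to 10.6 and 11.0 CPM, a log2 fold change of -1.38 (SE 0.078, adjusted p = 3.63e-08). Of the 26 genes of sulfation and epimerization, *CHST11*, a chondroitin sulfotransferase, fell there from 4.99 and 4.49 CPM to 1.43 and 1.48 CPM (log2 fold change -1.66, SE 0.082). *CHST15*, which adds a further sulfate to chondroitin, fell from 6.48 and 6.73 CPM to 3.09 and 2.90 CPM (log2 fold change -1.12, SE 0.080). *DSEL*, a dermatan sulfate epimerase gene, rose there from 7.28 and 5.92 CPM to 13.3 and 13.2 CPM (log2 fold change 1.0, SE 0.087). Its call was lost in 4 of 18 alternative settings, with a log2 fold change of 0.86 without the control library 2. In MCF10A *CHST7*, another chondroitin sulfotransferase gene, rose from 0.276 and 0.177 CPM to 0.641 and 0.793 CPM (log2 fold change 1.42, SE 0.23), a call that was lost in 3 of 18 alternative settings. *PAPSS2*, which makes the sulfate donor, fell from 32.3 and 37.6 CPM to 10.3 and 12.1 CPM (log2 fold change -1.64, SE 0.095).

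For heparan sulfate, *SULF1*, whose enzyme removes sulfates from the chains outside the cell, fell in DCIS.COM from 5.88 and 6.11 CPM to 0.233 and 0.148 CPM, a log2 fold change of -4.55 (SE 0.30, adjusted p = 1.52e-07). It had 0 reads in all MCF10A libraries. The sulfotransferase gene *HS3ST2* rose in MCF10A from 0.414 and 0.177 CPM to 1.39 and 0.831 CPM (log2 fold change 1.73, SE 0.34) and fell in DCIS.COM from 3.36 and 3.01 CPM to 0.262 and 0.384 CPM (log2 fold change -3.06, SE 0.34). Its groups did not overlap in either line, but its call in MCF10A was lost in 5 of 18 alternative settings, with log2 fold changes of 1.24 without the control library 2 and 1.38 without the pLOC-*MALINC1* library 1. *HS3ST1* rose in MCF10A from 4.90 and 5.76 CPM to 14.9 and 14.1 CPM (log2 fold change 1.44, SE 0.10). *HS3ST3B1* fell in DCIS.COM from 8.35 and 8.07 CPM to 3.99 and 3.43 CPM (log2 fold change -1.13, SE 0.13).

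Among the proteases, *ADAMTS9*, whose product cleaves versican and aggrecan, fell in DCIS.COM from 12.0 and 14.8 CPM to 1.51 and 1.77 CPM, a log2 fold change of -2.97 (SE 0.13, adjusted p = 5.51e-09). In MCF10A it stood at 12.6 and 14.9 against 9.08 and 8.42 CPM and was not called. *ADAMTS1*, which also cleaves these core proteins, rose in MCF10A from 1 and 0 reads to 8 and 6 reads, a ratio of 11.6 with a counting interval of 1.76 to 490, and its call was lost in 2 of 18 alternative settings. *ADAMTS3*, like *ADAMTS14* a procollagen N-propeptidase gene, rose in MCF10A from 0.276 and 0.443 CPM to 0.919 and 1.06 CPM (log2 fold change 1.32, SE 0.22), a call that was lost in 3 of 18. It thus moved opposite to *ADAMTS14* in MCF10A, at lower levels.

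**Figure D4:**
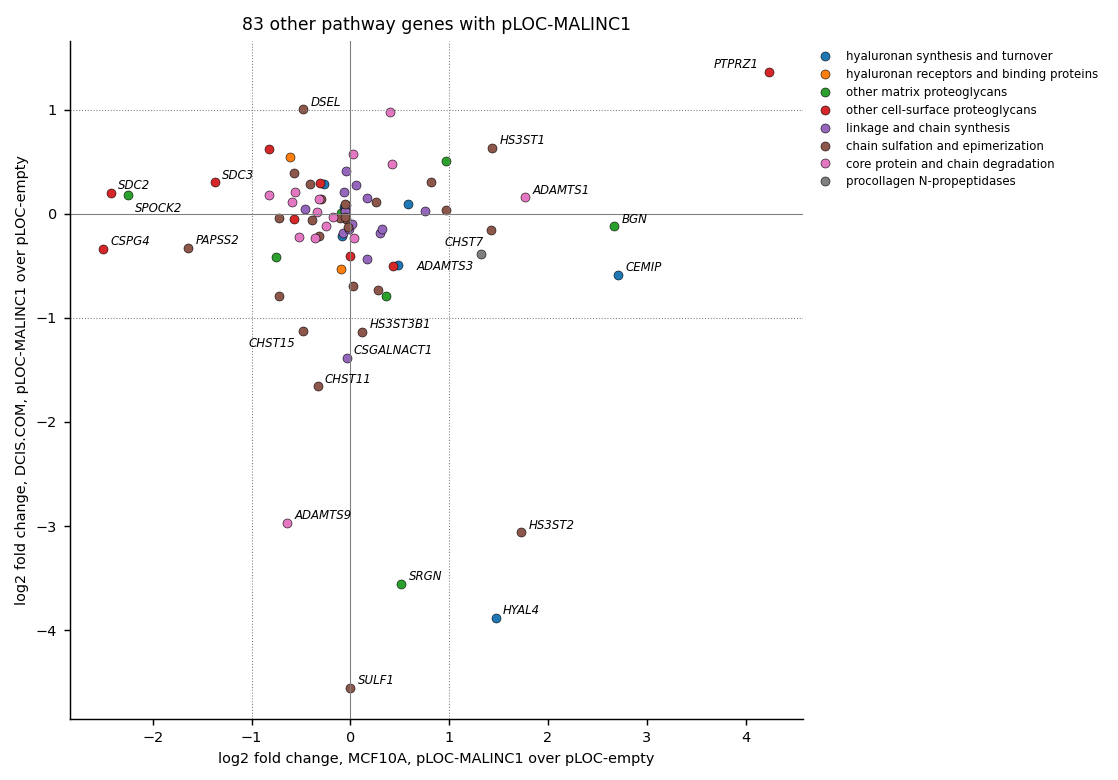
Log2 fold change with pLOC-*MALINC1* over pLOC-empty of the 83 other pathway genes in MCF10A (x axis) and in DCIS.COM (y axis), coloured by list, with the called genes named and dotted lines at 2-fold. *PTPRZ1* is higher in both lines, *SULF1* at -4.55 is the lowest in DCIS.COM, and *HS3ST2* and *HYAL4* lie in the lower right.

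Between the lines with pLOC-empty, 40 of the 83 other genes passed, 27 higher and 13 lower in DCIS.COM. *PTPRZ1* rose from 0.103 and 0.310 CPM (3 and 7 reads) to 35.9 and 39.0 CPM, a log2 fold change of 7.18 (SE 0.25, adjusted p = 3.31e-11). Over the alternative settings this change ran from 5.00 to 7.74. The glypican *GPC4* had 0 reads in MCF10A and 8.39 and 8.50 CPM in DCIS.COM, at least 145-fold higher. *SULF1* was at least 103-fold higher, each against 3 reads over the MCF10A group. Both limits leave out the counting error of the DCIS.COM reads. The largest falls at 5 CPM or more were those of *CSPG4* (log2 fold change -4.18, SE 0.11), *CHST11* (-3.78, SE 0.082) and *CHST15* (-3.31, SE 0.080). *CSPG4* fell from 70.3 and 64.4 CPM to 3.64 and 3.68 CPM. By list, 7 of 9 other cell-surface proteoglycans, 6 of 7 other matrix proteoglycans and 5 of 7 genes of hyaluronan synthesis and turnover were called. So were 12 of 26 genes of chain sulfation and epimerization and 5 of 16 of linkage and chain synthesis. The rest were 3 of 15 genes of core protein and chain degradation, 1 of 2 hyaluronan-binding genes and 1 of 1 procollagen N-propeptidase genes. Over all genes 28.6% were called. Differences between lists were not tested.

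**Figure D5:**
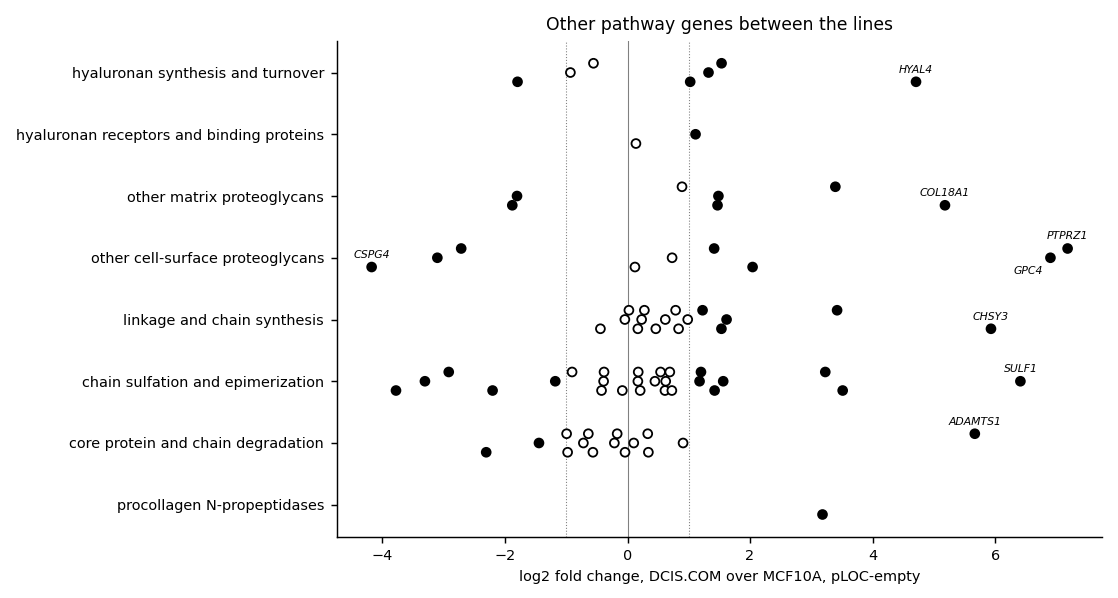
Log2 fold change of DCIS.COM over MCF10A with pLOC-empty (x axis) of the 83 other pathway genes, by list (y axis), with filled points for called genes and dotted lines at 2-fold. Proteoglycan core proteins spread from -4.18 (*CSPG4*) to 7.18 (*PTPRZ1*). Of the 16 genes of linkage and chain synthesis 5 were called, all higher, beside 28.6% of all genes. *CHSY3* of this list was 282-fold higher by summed reads, with 1 read in MCF10A.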

How the data were processed

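Total RNA of subconfluent cells was made into ScriptSeq v2 libraries and sequenced as paired-end reads. The authors used Rsubread to map the reads (hg19), featureCounts to assign them to genes of the UCSC set and edgeR for normalized log2 CPM. The deposited values are these log2 CPM, and tool versions and the strand setting are not given in the sources used here. Whole reads were recovered from the log2 values with a prior count of 2 for 100% of values (tolerance 0.05 reads). The deposited log2 CPM of all 13842 genes went into a limma fit (version 3.58.1, R 4.3.3, with a mean per group, eBayes with trend, 4 residual and 7.98 prior degrees of freedom, two-sided, Benjamini-Hochberg). Genes were to reach 0.5 CPM in 2 libraries, which all did. Fold changes are on the log2 scale with the prior count and understate those of low genes. The steps were tested on simulated data in which only genes with many reads were changed, so calls that rest on few reads were not tested. Genes and lists were chosen with earlier results of these data known.

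Rows without a symbol (2.50% of rows, 0.278% to 0.358% of reads) stayed in the fit. The replicate libraries of a group had correlations of 0.996 to 0.997 and differed by more than counting noise (chi-square per degree of freedom 3.23 to 20.2), and none was a repeat of another. The text names the 10 genes, other pathway genes called with pLOC-*MALINC1*, between the lines the 3 largest rises and 3 largest falls at 5 CPM or more, and the 2 most alike genes of *ACAN*, *VCAN*, *HAS2* and *HAS3*, of which 1 is not reported here. The alternatives changed the filter, pseudocount, scaling, model, replicate block, threshold and libraries. Positions and lengths are those of GENCODE on GRCh37, and promoters those of RefSeq on GRCh38.p14. Counting intervals came from the exact binomial (Clopper-Pearson) method in scipy 1.17.1, and tables and figures from pandas 2.3.3, numpy 2.4.6 and matplotlib 3.10.9 in Python 3.11.15.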

Additional observations from a re-analysis of the deposited data

Results flagged for a closer look

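Differences between the responses of the lines are given as the log2 fold change with pLOC-*MALINC1* in DCIS.COM minus that in MCF10A. For 5 of the 10 genes both libraries moved one way in MCF10A and both the other way in DCIS.COM. This is given without a test because these values may have chosen the genes. The share of all genes with such opposite moves was not counted, so nothing is read from the number. The difference was 6.51 for *ACAN*, 2.23 for *ADAMTS14*, -3.10 for *HAS2*, -0.42 for *SDC4* and 0.11 for *GPC1*. Those of *ACAN* and *ADAMTS14* rest on 2 and 1 reads in DCIS.COM with pLOC-empty. The confidence intervals of the changes of *GPC1* in both lines and of *HAS2* in MCF10A include 0.

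Of the 83 other pathway genes, 24 had responses that differed between the lines by the limma contrast of the difference. They passed an adjusted p < 0.01 and over 2-fold, with adjusted p-values of 4.96e-08 to 0.00714. The share of all genes that passed this contrast and their split by direction were not counted, so nothing is read from these numbers. With pLOC-*MALINC1*, 414 of all genes were called higher and 347 lower in MCF10A, and 200 higher and 427 lower in DCIS.COM. The response was lower in DCIS.COM for 16 of the 24 genes. Among hyaluronan and matrix genes these were *HYAL4* (-5.35), *SRGN* (-4.07), *CEMIP* (-3.30), *BGN* (-2.79) and *COL18A1* (-1.15), which encodes the basement membrane collagen that yields endostatin. Among chain enzymes they were *HS3ST2* (-4.79), *SULF1* (-4.55, with 0 reads in MCF10A), *CHST7* (-1.57), *CSGALNACT1* (-1.35), *CHST11* (-1.32), *HS3ST3B1* (-1.25) and *DSE* (-1.01). The cell-surface gene *PTPRZ1* (-2.87) and the proteases *ADAMTS9* (-2.33), *ADAMTS3* (-1.71) and *ADAMTS1* (-1.61) completed them. The response was higher in DCIS.COM for the cell-surface genes *SDC2* (2.63), *CSPG4* (2.17), *SDC3* (1.68) and *TGFBR3* (1.44). It was also higher for *SPOCK2* (2.43), *DSEL* (1.48), *PAPSS2* (1.32) and *IDUA* (1.01), a lysosomal enzyme gene. Where a group had few reads, these fitted differences depend on the prior count. *HYAL4* had 0 reads in MCF10A with pLOC-empty and 4 in DCIS.COM with pLOC-*MALINC1*. *SRGN* had 3 reads in DCIS.COM with pLOC-*MALINC1*, and *BGN* had 1 in each DCIS.COM group. *ADAMTS1* had 1 read and *PTPRZ1* 10 reads in MCF10A with pLOC-empty, and *SDC2* had 4 in MCF10A with pLOC-*MALINC1*.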

How the results depend on the processing

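Over the log2 fold changes of the 10 genes, 506 alternative values kept direction and call, 19 lost the call, 2 gained it and 3 changed sign. The sign changed only near 0. *SDC1* in DCIS.COM was at -0.0020 without the control library 1 and -0.0098 without the pLOC-*MALINC1* library 2, and *SDC4* between the lines at -0.0051 without the DCIS.COM control library 1, with ranges over left-out libraries of -0.0098 to 0.035 and -0.0051 to 0.043. Calls lost were those of *ADAMTS14* and, in DCIS.COM, of *ACAN* with a pseudocount of 1 CPM (0.66) and with the line fitted alone (adjusted p = 0.0112). *CD44* passed 2-fold between the lines with quantile normalization (1.06) and with *RN7SL1* and *RN7SL2* left out (1.06), a scaling that moved the median of all genes there from 0.031 to 0.14. With a pseudocount of 1 CPM, 8 other pathway genes were called in MCF10A and 2 of the 10 genes in DCIS.COM, and 416 and 368 of all genes in the lines against 761 and 627. With each line fitted alone, 2 of the 10 genes were called in DCIS.COM. At an adjusted p < 0.01 at any fold, 7 of the 10 genes were called in MCF10A, other pathway genes numbered 46, 39 and 74, and all genes 5485, 4592 and 10230, in MCF10A, DCIS.COM and between the lines. Of 31 named values of other pathway genes, 21 kept their call in every alternative and 0 changed sign. With the replicate block, the counts stayed at 4, 4 and 8 of the 10 genes and 14, 11 and 40 other pathway genes. The same-numbered libraries share only a number (correlation of their deviations -0.067 in MCF10A and 0.035 in DCIS.COM). With 2 libraries in a group and 1 read worth up to 0.0477 CPM, changes of *ACAN* in both lines and of *ADAMTS14* in DCIS.COM are limited by counting error.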
